A study of Mus musculus with 5 samples.

Results

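The cells described here are CD4 T cells without Foxp3 RNA that carried RNA of the genes used to recognise follicular helper T cells. A cell was taken where its 3 CD3 genes together had at least 2 unique molecular identifiers (UMIs, counted RNA molecules) and Cd4 at least 1. It could hold at most 1 UMI of Cd8a and Cd8b1 together, none of Foxp3, at most 1 of Cd79a and at most 5 of the 3 C1q genes. Its UMIs of Pdcd1, Cxcr5, Bcl6 and Il21 had to sum to at least 2. This gate took 134 of 21531 cells, which is 0.622% (95% exact Clopper-Pearson interval 0.522 to 0.737%). They were set against 1660 comparison cells that passed the same conditions but had no UMI of the 4 genes. Another 234 cells had a sum of 1 and belong to neither class.

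Follicular helper T cells are CD4 T cells that move into B cell follicles and help B cells form germinal centres. BCL6 is the transcription factor that sets up the programme, CXCR5 the chemokine receptor that guides the cells to the follicle, and interleukin 21 the cytokine they give to B cells. PD-1, encoded by Pdcd1, is an inhibitory receptor that follicular helper cells share with other activated and exhausted T cells, so a cell can pass the gate through Pdcd1 without being follicular.

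The cells came from 3 mice that each received 1 antibody: mouse 1 nivolumab_mIgG1_D265A, mouse 2 nivolumab_mIgG1, and mouse 3 the isotype control MOPC21. Nivolumab is an antibody against PD-1. From every mouse, live CD45+ cells were sorted from the tumour, the node named dLN and the node named non-dLN, marked with hashtag antibodies and counted in 1 pool. Mouse strain, age and tumour line are not given in the sources used here. Nothing in these sources ties a hashtag to a mouse or a site, so the marked cells are called populations 1 to 9 by hashtag number. Antibodies and sites were therefore not compared, and since the populations are no replicates of a group, no test was run. Every interval covers counting error only, and the 4 genes of the gate are described and count as support for nothing.

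Populations 2, 5 and 8 held 93 of the 134 gated cells (69.4%), and they are the populations with at least 20 cells of both classes, within which ratios could be read. The hashtag barcodes that mark them are shown because the account by population rests on them, as the labels give them, 5′ to 3′.
population 2: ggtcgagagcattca
population 5: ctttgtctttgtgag
population 8: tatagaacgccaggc
The labels call these antibodies TotalSeq-C and the deposited table calls them TotalSeq-B, with the same numbers.

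By population, from 1 to 9, the gate took 7, 31, 7, 7, 34, 6, 5, 28 and 9 cells. As a share of all cells of a population, gated cells made up 1.31, 1.42 and 1.16% in populations 2, 5 and 8 and between 0.203 and 0.349% in the other 6. As a share of the CD4 T cells without Foxp3 the order was different. There the gated cells reached 25.9% in population 1 (7 of 27 cells, interval 11.1 to 46.3%), 25.0% in population 4 (7 of 28) and 31.3% in population 7 (5 of 16). The shares were 10.5, 15.8 and 11.2% in populations 2, 5 and 8, and 1.77, 1.55 and 2.23% in populations 3, 6 and 9. The intervals of populations 2, 5 and 8 do not reach those of 3, 6 and 9, while those of 1, 4 and 7 are wide and overlap the intervals of 2, 5 and 8. With every cell thinned to 1500 UMIs before the gate that separation held only for population 5 (4.80 to 17.3%). The intervals of populations 2 (1.51 to 8.67%) and 8 (0.259 to 7.48%) then overlapped those of 3, 6 and 9, which ended at 2.74, 2.10 and 3.16%.

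**Figure D1:**
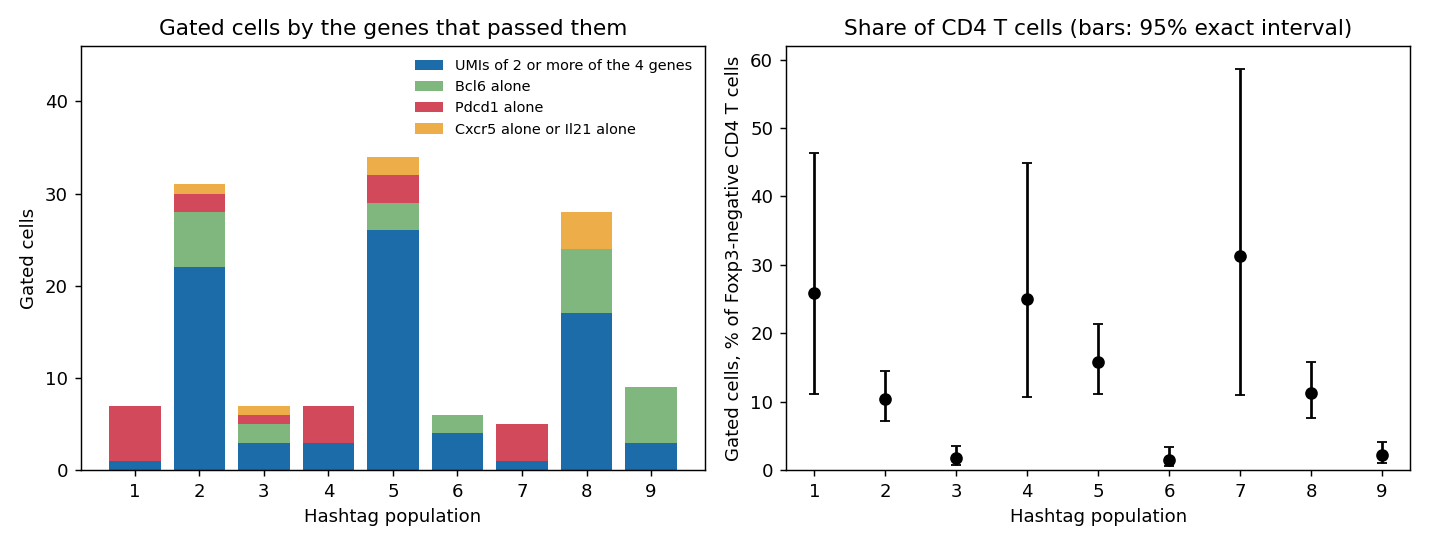
Left, number of gated cells in each hashtag population (x axis), stacked by which of the 4 gate genes had UMIs. Right, gated cells as a percent of the CD4 T cells without Foxp3 with 95% exact intervals; populations 2, 5 and 8 hold 93 of the 134 cells, and the shares of populations 1, 4 and 7 rest on 27, 28 and 16 CD4 T cells.

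The gate could be passed in several ways, and the ways differed between populations. Of the 134 cells, 80 had UMIs of 2 or more of the 4 genes, 26 passed through Bcl6 alone, 20 through Pdcd1 alone, 5 through Il21 alone and 3 through Cxcr5 alone. All 4 genes were seen together in 8 cells. Populations 2, 5 and 8 held 65 of the 80 cells with 2 or more genes. Cells with Pdcd1 alone numbered 6, 2, 1, 4, 3, 0, 4, 0 and 0 in populations 1 to 9. Those with Bcl6 alone numbered 0, 6, 2, 0, 3, 2, 0, 7 and 6. Populations 1, 4 and 7 thus held 14 of the 20 cells with Pdcd1 alone and none of the 26 with Bcl6 alone.

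The levels of the 4 genes, given as counts per 1000000 UMIs (CPM) of a class's summed counts, follow from the gate and are a description. Pdcd1 (1:94038305-94052553, GRCm38) stood at 1024, 173, 174, 974, 240.3, 140.1, 474, 81.8 and 15.8 CPM in the gated cells of populations 1 to 9. Bcl6 (16:23965052-23988852), the lineage regulator, ranged from 73.1 CPM in population 1 to 315 CPM in population 6. Pdcd1 was highest in populations 1, 4 and 7, whereas Bcl6 had its 2 lowest values in populations 1 and 4. Cxcr5 (9:44511787-44561877) reached 189, 131 and 95.5 CPM in populations 2, 5 and 8, lay between 31.6 and 74.6 CPM in populations 1, 3, 4 and 9, and was at 0 in 6 and 7. Il21 (3:37222759-37232636) had 178, 114 and 72.8 CPM in populations 2, 5 and 8 and 99.5 CPM in population 3, and was at 0 in populations 1, 4, 6, 7 and 9. The cells that carry the name's markers together were thus found mostly in populations 2, 5 and 8, and the gated cells of populations 1, 4 and 7 were defined by Pdcd1.

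Of the 4 genes Il21 had the largest share of its UMIs of the whole series in the gated cells. They held 81 of all 113 Il21 UMIs (71.7%). The gated cells held 2.49% of the Cxcr5 UMIs, of which B cells had 72.7%. Macrophages held 41.3% of the Bcl6 UMIs and CD8 T cells 81.8% of the Pdcd1 UMIs.

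Cells just inside and just outside the threshold differed in steps. Izumo1r, the folate receptor family gene that marks follicular helper and regulatory T cells, had 138 CPM in cells with a sum of 0, 225 CPM at a sum of 1, 512 CPM in the 60 cells at a sum of 2 and 423 CPM in the 74 cells at 3 or more. Tox2, a transcription factor gene of the follicular programme, stood at 6.77, 16.4, 137 and 216 CPM in the same order. Klf2, which keeps T cells recirculating, stood at 1141, 841, 320.4 and 136 CPM. The cells with a sum of 1 were closer to the comparison cells for these 3 genes than to the gated cells.

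Across all genes, those with at least 50 UMIs in both classes together were read as measured. A gene was called higher with a ratio of 2 or more and lower with 0.5 or less, provided the 95% interval did not include 1, which is a call by size and not by a test. Of 8705 measured genes 920 were higher in gated cells (10.6%) and 301 lower (3.46%), with a median log2 ratio of 0.18. In populations 2, 5 and 8, each read alone, 763 of the higher and 270 of the lower genes had the same direction in all 3. The gated cells had less RNA of ribosomal protein genes (19.1% of UMIs against 28.6%). With mitochondrial and ribosomal genes left out of the denominator every log2 ratio is 0.18 lower, 680 genes were higher and 452 lower, and the share of higher genes among those called went from 75.3 to 60.1%. Median depth was 5026.5 UMIs per gated cell and 4236.5 per comparison cell.

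**Figure D2:**
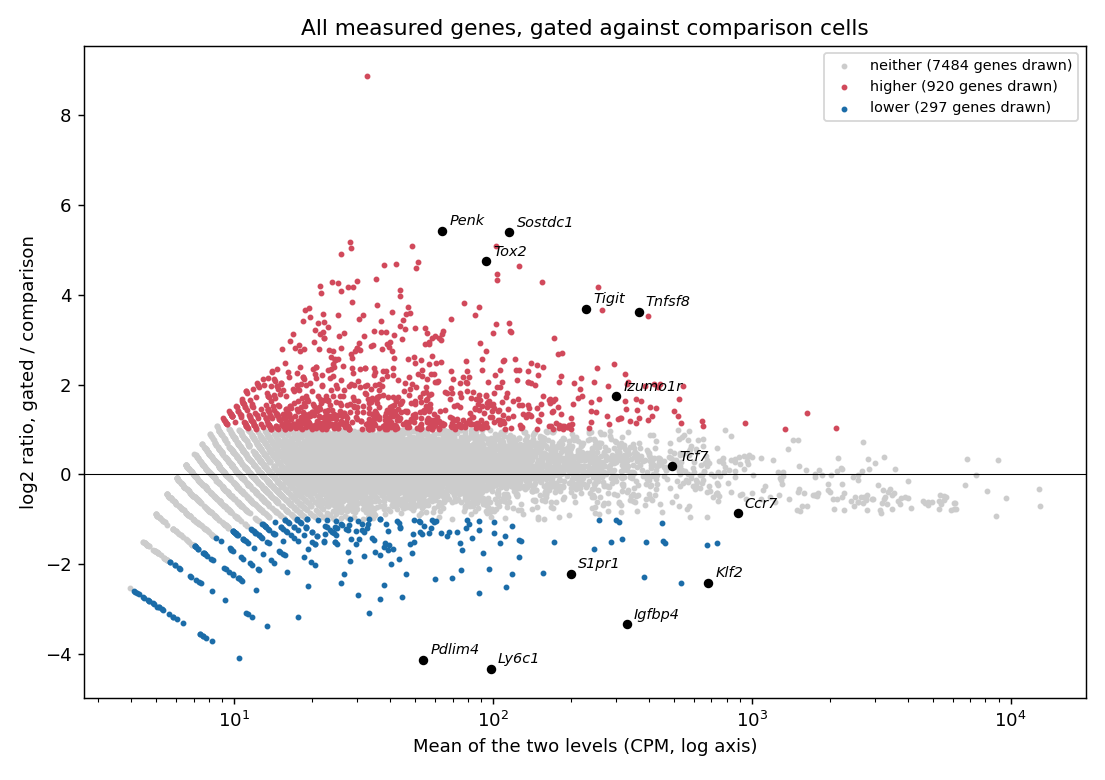
Each point is a measured gene, with the mean of its levels in gated and comparison cells (x axis, CPM, log axis) and the log2 ratio of gated to comparison cells (y axis); genes counted higher are red, lower blue, and 4 lower genes with no UMI in the gated cells are not drawn. Penk, Sostdc1 and Tox2 lie near the top, Ly6c1 and Pdlim4 at the bottom, and Tcf7 and Ccr7 between the limits.

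The follicular helper programme beyond the gate genes was higher in the gated cells. Of 20 listed genes 18 were measured, 14 were higher and none lower, and the median log2 ratio was 1.86. All 14 had the same direction in populations 2, 5 and 8. The count lay between 13 and 14 under the other denominator, in cells with 2 or more gate genes, without each population in turn, and without each gene's cell with the most UMIs. Genes of the same cells chose the members, so these counts describe the gate and test nothing.

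Izumo1r (9:14885814-14903949) was the only marker of the name that the gate did not use. It had 36.6, 423, 622, 74.9, 572, 70.0, 119, 596 and 268 CPM in gated cells of populations 1 to 9. In comparison cells of the same populations Izumo1r had 259.7, 196, 131, 197, 192, 93.8, 264, 139 and 114 CPM. It was thus above the comparison cells in populations 2, 3, 5, 8 and 9 and below them in 1, 4, 6 and 7. Outside populations 2, 5 and 8 these levels rest on 5 to 9 gated cells each, too few for a ratio to be read. Pooled, Izumo1r stood at 461 against 138 CPM, a ratio of 3.34 (2.97 to 3.76). With every cell thinned to 1500 UMIs, 48.1% of gated cells had an Izumo1r UMI (39.3 to 57.0%, 64.9% unthinned), against 13.2% of comparison cells (25.96% unthinned) and 0.451% of B cells (0.911% unthinned), which were taken as a background class and had a median depth of 3036.5 UMIs.

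Tox2 (2:163203125-163324170) had the largest ratio of the programme, with 156 UMIs in 55 gated cells. Its level was 182 against 6.77 CPM, a ratio of 26.9 (19.4 to 37.9), and the ratios were 9.37, 19.0 and 29.7 in populations 2, 5 and 8, or 15.4 in these pooled. After thinning, 22.1% of gated and 0.917% of comparison cells had a Tox2 UMI. Its relative Tox was 3.94-fold higher (3.61 to 4.30), at 864 against 219 CPM. Maf, a transcription factor that drives Il21 and Il4, was 8.91-fold higher, and Batf, which works with IRF4 upstream of Bcl6, 2.78-fold. Irf4 itself was near the limit at 2.13-fold (1.70 to 2.65), and at 1.83 it was not called without the 1 cell with the most UMIs. Pou2af1, a coactivator best known from B cells, was 7.04-fold higher, with 45 UMIs in 26 cells.

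The other called genes of the programme encode surface receptors, ligands and signalling proteins. Tnfsf8, the CD30 ligand, had 293 CPM in gated cells of population 1, 693 in 2, 498 in 3, 112 in 4, 795 in 5, 0 in 6, 158 in 7, 841 in 8 and 663 in 9. Only populations 6 and 7, with 6 and 5 gated cells, were below their own comparison cells, which had 31.0 and 231 CPM there. Pooled, Tnfsf8 was 12.3-fold higher (10.8 to 14.0). Cd200, a ligand that restrains myeloid cells, was 11.8-fold higher (8.99 to 15.4) and was at 0 in the gated cells of populations 1, 4 and 7. Icos, the costimulatory receptor needed for follicular helper cells, was 3.12-fold higher (2.80 to 3.46) when pooled, while in population 1 it stood at 1353 CPM in gated and 1511 CPM in comparison cells. Sh2d1a, the adaptor of SLAM receptors that steadies contact with B cells, was 4.42-fold higher, and Slamf6, one of these receptors, 3.33-fold. Rgs16, which limits chemokine receptor signals, was 9.09-fold and P2rx7, an ATP receptor, 5.18-fold higher.

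The 4 measured members that were not called were Cxcr4, Il6st, Tcf7 and Il6ra. Tcf7, a transcription factor of naive, memory and follicular helper T cells, stood at 525 against 461 CPM, a ratio of 1.14 (1.03 to 1.26). Il6ra, a receptor chain for interleukin 6, was at 1.11 (0.925 to 1.31). Ascl2, an inducer of Cxcr5, had 5 UMIs in 5 gated cells and none in comparison cells, and S1pr2, which retains cells in the germinal centre, had 14 UMIs in 11 gated cells. Both were below the minimum for a ratio.

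**Figure D3:**
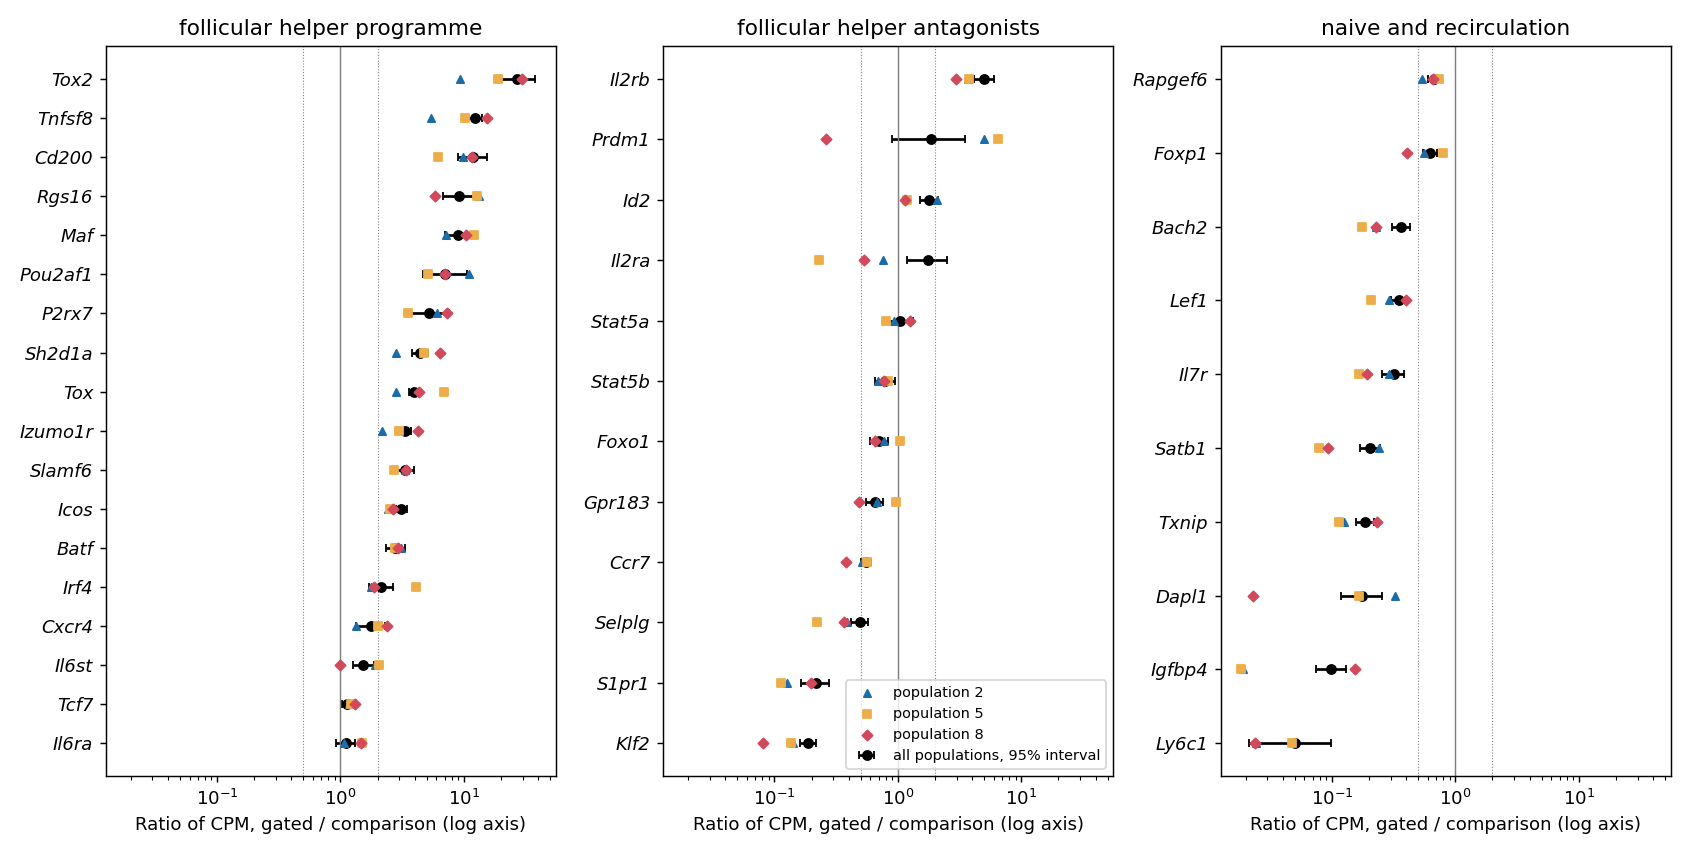
Ratio of levels in gated to comparison cells (x axis, log axis) for the measured genes of 3 lists, for all populations pooled with the 95% interval (black) and for populations 2, 5 and 8 (coloured symbols); dotted lines mark ratios of 0.5 and 2. In the follicular helper programme the pooled points of 14 genes lie beyond 2, and in the naive and recirculation list those of 8 genes lie below 0.5.

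Signals that helper cells give to B cells were mostly not called. Of 6 measured genes 2 were higher, Slamf1 (2.86-fold, 2.15 to 3.76) and Ifng (7.32-fold, 4.95 to 10.8). Cd40lg, the ligand through which helper cells license B cells, stood at 259 against 182 CPM, a ratio of 1.42 (1.23 to 1.64) that was not called. Ifng, which directs antibody class, had 52 UMIs in 21 gated cells and a ratio of 12.3 in populations 2, 5 and 8 pooled. Il4, the other class-directing cytokine, had 29 UMIs in 15 gated cells, with 35.7, 78.6 and 18.2 CPM in populations 2, 5 and 8 and 0 in the other 6, and was below the minimum for a ratio. Il4 RNA in the gated cells thus lay in the same 3 populations that held most of these cells.

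Genes that oppose the follicular state were mixed. Of 12 measured, 3 were lower (Klf2, S1pr1 and Selplg) and 1, Il2rb, was higher, with a median log2 ratio of -0.42. Klf2 represses Cxcr5 and maintains S1pr1, the receptor with which T cells leave lymph nodes. In gated cells Klf2 had 109.7, 168, 572, 150.0, 179, 315, 395, 114 and 568 CPM in populations 1 to 9, and in comparison cells 567, 1180.0, 1056, 565, 1318, 1086, 595, 1420.1 and 1046 CPM. The gated cells were thus below the comparison cells in every population. Pooled, Klf2 was 5.31-fold lower (4.59 to 6.18) and S1pr1 4.65-fold lower (3.60 to 6.09). Selplg, a ligand for selectins that is switched off in follicular helper cells, was 2.02-fold lower (1.73 to 2.38). Its ratio passed the limit of 0.5, at 0.53, 0.59 and 0.54, without populations 2, 5 and 8 in turn. Ccr7, the receptor for the T cell zone, was 1.82-fold lower and was not called, although in populations 2, 5 and 8 alone its ratio was 0.476. Il2rb, a chain of the interleukin 2 receptor, was 5.01-fold higher. Prdm1, the opponent of Bcl6, was not called. In populations 2, 5 and 8 alone 5 of 11 measured genes of this list were lower, Il2ra among them, and without population 5 or population 8 2 were lower and 3 higher.

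Genes of naive and recirculating T cells formed the list with the most lower members. Of 10 measured, 8 were lower and none higher, all 8 in the same direction in populations 2, 5 and 8, and the median log2 ratio was -1.97. The count stayed at 8 in each of the settings named for the follicular programme. Igfbp4 was 10.1-fold lower (7.65 to 13.5), but 805 CPM in population 6 lay beside the 768 CPM of its comparison cells. That value rests on 23 UMIs, 21 of them in 1 of the 6 gated cells, and is 91.2 CPM without that cell, whereas populations 2 and 5 had 10.2 and 8.74 CPM against 532 and 474 CPM. Without population 6 the Igfbp4 ratio went from 0.0993 to 0.0607. Ly6c1, a surface protein of resting and memory cells, had 8 UMIs in the gated cells and was 20.1-fold lower (10.2 to 46.6). Satb1, a chromatin organiser, was 4.88-fold lower, Il7r, the survival receptor of resting T cells, 3.16-fold and Lef1, a partner of TCF-1, 2.87-fold. Foxp1 and Rapgef6 were the members not called.

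**Figure D4:**
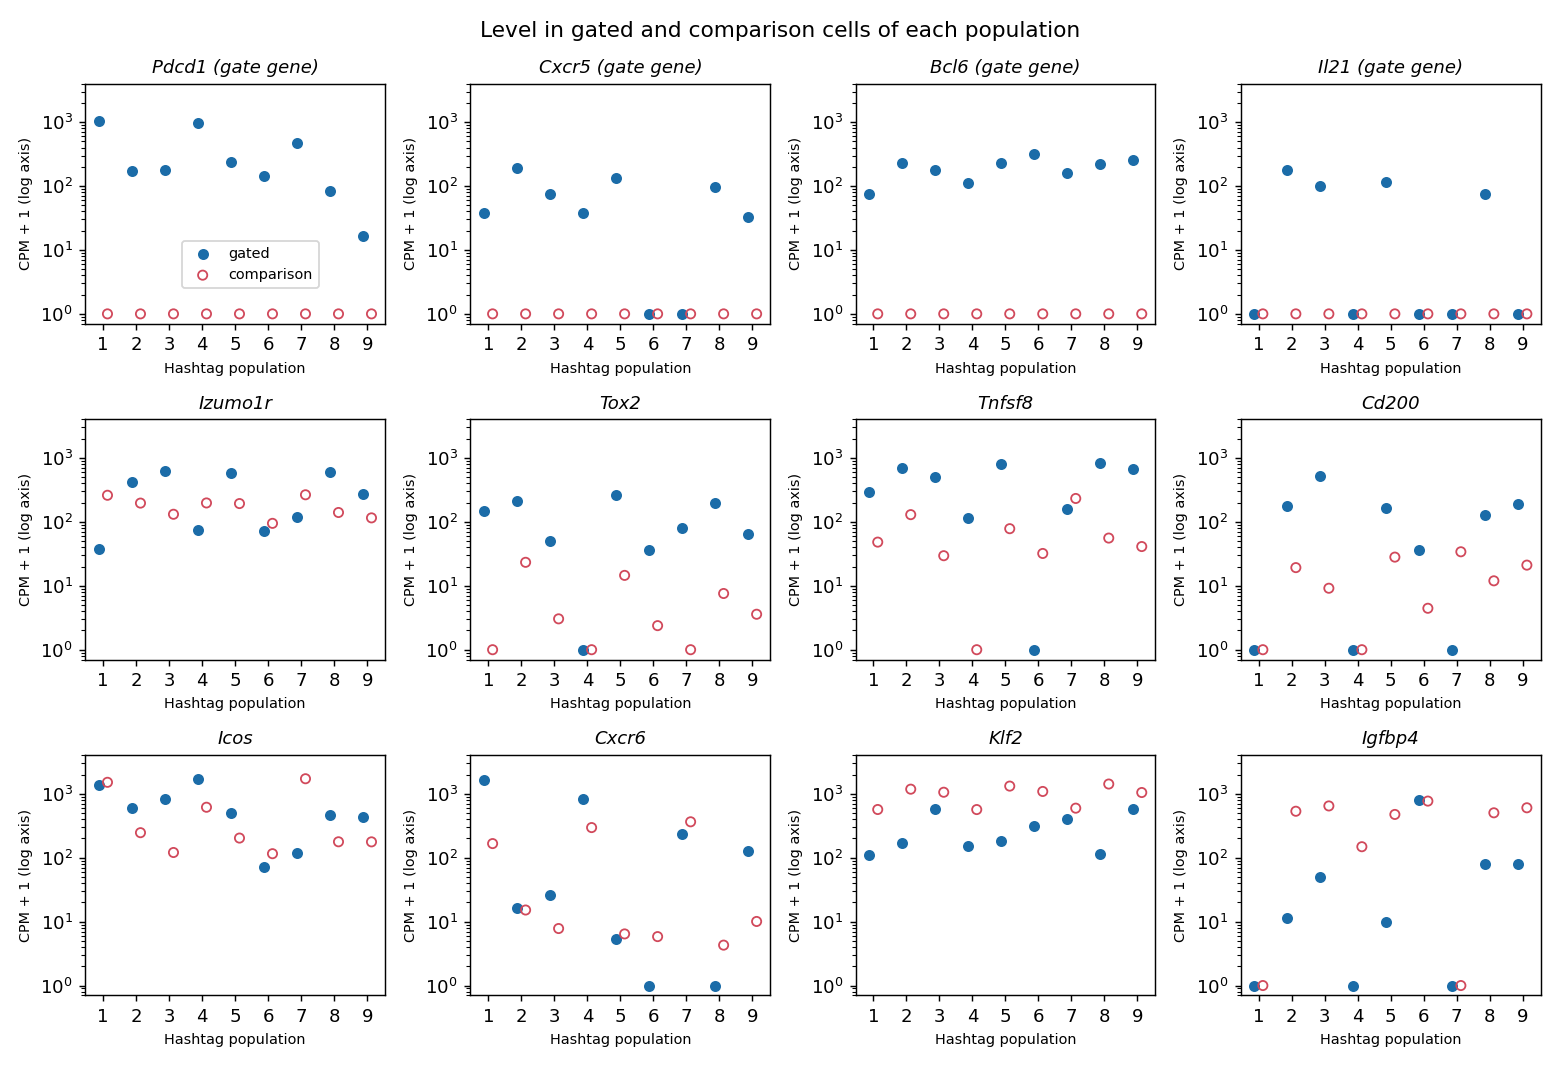
Level (y axis, CPM + 1, log axis) of the 4 gate genes and of 8 other genes in gated (filled) and comparison cells (open) of hashtag populations 1 to 9 (x axis). Cxcr6 is high in the gated cells of populations 1, 4 and 7, Tox2 has its 3 highest values in 2, 5 and 8, Tnfsf8 its 5 highest in 2, 3, 5, 8 and 9, and the Igfbp4 value of gated cells in population 6 comes mostly from 1 cell.

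Inhibitory receptors beyond PD-1 were higher as a group: 7 of 10 measured were higher and none lower, with a median log2 ratio of 1.95, and 6 of the 7 had the same direction in populations 2, 5 and 8. Tigit, a receptor for nectin ligands, was 12.9-fold higher (10.96 to 15.3). In the gated cells Tigit stood at 1169.9, 464, 99.5, 712, 419, 140.1, 79.0, 537 and 0 CPM in populations 1 to 9. Population 7, with 5 gated cells, was below its comparison cells at 264 CPM. Ctla4 was 4.04-fold higher (3.66 to 4.45). Btla, which pairs with HVEM on B cells, was 4.17-fold higher and had 0 CPM in populations 1, 4, 6 and 7, while Lag3 was 8.09-fold higher (5.14-fold without 1 cell of population 1 that held 25 of its 68 UMIs) and had 1279.6 CPM in population 1, at most 158 CPM elsewhere and none in populations 3 and 9. In populations 2, 5 and 8 alone, 4 of 6 measured receptors were called (Btla, Cd160, Ctla4 and Tigit).

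Among costimulatory receptors 4 of 7 were higher and none lower. Cd44, the adhesion receptor of antigen-experienced cells, was 5.38-fold higher (4.51 to 6.41). Tnfrsf4, which encodes OX40, was 5.50-fold higher, Tnfrsf9, which encodes 4-1BB, 4.67-fold, and Tnfrsf18, which encodes GITR, 2.30-fold. Tnfrsf9 had 1609 and 1536 CPM in the gated cells of populations 1 and 4 and 1464 and 1574 CPM in their comparison cells, so there the classes were alike in level. Of 10 genes of the T cell receptor response 4 were higher: Bhlhe40 (11.5-fold, 10.2 to 13.03), Nfatc1 (5.20-fold), Nr4a2 (4.11-fold) and Nr4a3 (2.38-fold). Nr4a1 and Cd69, which follow a recent signal, had ratios of 1.15 and 0.975 and were not called. Of 7 genes linked to anergy 3 were higher, Nrp1 (8.03-fold), Nt5e (5.50-fold) and Egr2 (5.10-fold).

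Genes of other helper lineages were also higher. Of 10 measured T helper 1 genes 7 were higher and none lower, 5 of them in the same direction in populations 2, 5 and 8, and in these populations alone 4 of 6 measured were called. Tbx21, the T helper 1 regulator, was 5.23-fold higher (3.08 to 8.73) from 26 UMIs in 16 cells, and Cxcr3, its target receptor, 8.54-fold (6.32 to 11.5). Cxcr6, a receptor of tissue-resident T cells, was 8.86-fold higher (6.47 to 12.1) when pooled. However, Cxcr6 had 1645, 15.3, 24.9, 824, 4.37, 0, 237, 0 and 126 CPM in the gated cells of populations 1 to 9, and the ratio in populations 2, 5 and 8 pooled was 0.779. The pooled Cxcr6 value thus came from the other populations, and without population 1 it was 4.74. The 3 measured T helper 2 genes were higher, Gata3 2.22-fold, Ccr8 4.11-fold and Ccr4 3.10-fold. Gata3 was not called with the other denominator or without UMIs of Cd79a or C1q, and Ccr4 was not called in cells with 2 or more gate genes. Also higher was Rora, the 1 measured T helper 17 gene (6.43-fold). Il17a, Il17f, Ccr6 and Il23r were below the minimum. Of 8 cytotoxic genes none was higher and 2 were lower, Gzma (2 UMIs, 10.5-fold lower, 2.86 to 87.2) and Prf1 (4 UMIs, 4.38-fold lower). Of the 177 Gzma UMIs of comparison cells 106 were in 1 cell of population 4, and without it Gzma was 4.21-fold lower (1.12 to 35.4). In cells with 2 or more gate genes Gzmb and Ctsw were lower as well.

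Of 8 genes of the interleukin 2 and 21 axis, Il2 and Cish were higher and Il4ra lower. Il2, the T cell growth factor, had 108 UMIs in 11 gated cells, 46 of them in 1 cell of population 3, with a pooled ratio of 10.99 (8.18 to 14.8) that was 5.41 without population 3 and 23.3 without population 9. Il4ra, the receptor for interleukin 4, was 4.34-fold lower (3.04 to 6.41). Of 9 interferon response genes 2 were higher, Cxcl10 (6.68-fold) and Isg15 (2.13-fold), but Isg15 was not called without population 2, 4 or 6, with the other denominator or without the 1 cell with the most UMIs. Of 4 measured genes of regulatory T cells Ikzf2, which encodes Helios, was 6.55-fold higher (5.58 to 7.69) with 276 UMIs in 68 cells, Tnfrsf1b was higher and Klrg1 lower, the latter not without the 1 comparison cell with 17 of its 59 UMIs.

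Cells with RNA of division genes made up a larger share of the gated than of the comparison cells. Of 8 measured cell cycle genes 6 were higher, 5 of them in the same direction in populations 2, 5 and 8. Mki67, a protein of dividing cells, had 252 UMIs in 24 gated cells, 88 of them in 1 cell, and was 19.5-fold higher (15.5 to 24.7), 12.95-fold without that cell, or 11.5-fold in populations 2, 5 and 8 pooled. After thinning, 17 of 131 gated cells (12.98%, 7.74 to 20.0%; 24.6% unthinned) had a UMI of Mki67 or Top2a. The same held for 3.30% of comparison cells (2.49 to 4.28%; 8.07% unthinned). Unthinned, the gated cells with a UMI numbered 1, 6, 3, 1, 5, 1, 2, 11 and 3 in populations 1 to 9.

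By size of ratio, among genes with the same direction in populations 2, 5 and 8, the 10 highest were Penk, Sostdc1, 5430421N21Rik, Fam43a, Ube2c, Fbn2, Magi2, Tox2, Angptl2 and Plagl1. Sostdc1, a secreted antagonist of BMP and WNT signals, had 372, 236 and 305 CPM in the gated cells of populations 2, 5 and 8 and 0 in the other 6. Its pooled ratio was 42.0 (29.7 to 60.9), from 194 UMIs in 20 cells, so Sostdc1 was high in few cells. It was 71.6 without population 2 and 20.9 in populations 2, 5 and 8 pooled. Penk, which encodes the enkephalin precursor, had a ratio of 43.0 (26.8 to 72.4) from 107 UMIs in 7 cells, 52 of them in 1 cell, and it was 22.6 without that cell. It ran from 21.7 without population 5 to 309 without population 7, and it was 6.81 and not called without UMIs of Cd79a or C1q. Fam43a, at 34.2 (20.8 to 58.9), was spread over 34 cells. Ube2c, a cell division gene, had 172 UMIs in 13 cells. Magi2 and Fbn2 had 33 of 43 and 24 of 47 UMIs in 1 cell, and their ratios went from 30.3 to 7.09 and from 33.1 to 16.3 without it.

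The 10 lowest were Dapk1, Gm13546, Sorcs2, Tbc1d16, Ly6c1, Pdlim4, Tmem108, Actn2, Hotairm1 and Gm43661. Pdlim4, an actin-associated protein, had 5 UMIs in gated cells and was 17.5-fold lower (7.47 to 54.1). Dapk1, Gm13546, Sorcs2 and Tbc1d16 had none. Taking 3 counts over the class as what a count of 0 allows, Gm13546 was at least 4.06-fold and Dapk1 at least 3.39-fold lower. Gm13546 and Hotairm1 are annotated as antisense genes, whose reads can be told from those of their partners only if strand was used in counting.

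The gated cells were also set against the 55 of 1660 comparison cells with at least 2 UMIs of Cd44, which rises on activated T cells and is not counted here. Of 4212 measured genes 189 were higher (4.49%) and 56 lower (1.33%), and with ribosomal and mitochondrial genes out of the denominator these were 144 and 82, so the share of higher genes among those called went from 77.1 to 63.7%. Without population 5 the lower genes numbered 30, and without population 8 they numbered 21. Without each gene's cell with the most UMIs 18 were lower. Fewer genes of the follicular programme passed the size used than against all comparison cells: 8 of 18 measured were higher, and none lower, and without each gene's top cell 7 were, Pou2af1 being lost. Rgs16 was 8.73-fold higher (3.62 to 27.5), from 5 UMIs in the Cd44 cells, Tnfsf8 3.88-fold (3.00 to 5.08), Tox2 3.62-fold (2.24 to 6.18), Cd200 3.31-fold (2.02 to 5.75), Sh2d1a 2.82-fold (2.08 to 3.91) and Maf 2.44-fold (1.62 to 3.79). Izumo1r had 461 against 294 CPM, a ratio of 1.57 (1.27 to 1.96), and Icos 564 against 410 CPM, a ratio of 1.37 (1.14 to 1.66), and neither was called. Of 9 measured genes of naive T cells 3 were lower, among them Igfbp4 (4.27-fold, 3.01 to 6.12) and Satb1 (2.53-fold, 1.95 to 3.30). Klf2 was 2.24-fold lower (1.82 to 2.77). Of the other lists, 3 of 7 inhibitory receptors were higher (Cd160, Lag3 and Tigit), 3 of 7 T helper 1 genes and 2 of 8 cell cycle genes. Cd160, Nkg7 and Mki67 were among these and were not called without their top cell. The 8 cell cycle genes had a median log2 ratio of -0.21, so as a list they were not higher than in the Cd44 cells. None of 6 signals to B cells was called.

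The 20 cells that passed through Pdcd1 alone were set against the 114 with a UMI of Cxcr5, Bcl6 or Il21. Of 3124 measured genes 181 were higher (5.79%) and 173 lower (5.54%) in the cells with Pdcd1 alone, and without each gene's cell with the most UMIs these were 80 and 129. With ribosomal and mitochondrial genes out of the denominator 157 were higher and 211 lower. The share of higher genes among those called then went from 51.1 to 42.7%. Of 16 measured genes of the follicular programme none was higher and 7 were lower. Tox was 3.44-fold lower (2.29 to 5.40), Tnfsf8 3.40-fold, Slamf6 2.87-fold, Tcf7 2.61-fold and Sh2d1a 2.41-fold. Cd200 had 1 UMI and was 15.4-fold lower (2.72 to 614), and Il6st was lower too. Izumo1r, at 373 against 471 CPM, had a ratio of 0.791 (0.536 to 1.13) and was not called. The gated cells of populations 1, 4 and 7, which held 14 of the 20, stood far below 373 CPM for this gene. Most Izumo1r UMIs of the 20 cells thus lay in those of populations 2, 3 and 5.

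The same 20 cells were higher in 5 of 7 measured T helper 1 genes. Cxcr6 stood at 791 against 20.8 CPM, a ratio of 38.0 (21.8 to 70.0), with UMIs in 10 of the 20 cells and in 6 of the 114. Ifngr1, the interferon gamma receptor, was 15.2-fold higher (11.1 to 20.98), Lag3 10.4-fold (6.25 to 17.3; 3.52-fold without 1 cell with 25 of the 37 UMIs), Tnfrsf9 7.53-fold, Nkg7, a granule protein, 5.91-fold and Ccl5, a T cell chemokine, 4.56-fold. Without 1 cell of population 7 each, Nkg7 was 3.82-fold and Ccl5 2.09-fold higher. Of 10 measured genes opposed to the follicular state 4 were higher, Selplg 3.93-fold, Il2rb 2.39-fold, Id2 2.31-fold and Gpr183 2.30-fold, and Ccr7 was 2.02-fold lower. Gpr183 and Ccr7 were not called without their top cell. Btla had no UMI against 195 CPM and was at least 5.76-fold lower, taking 3 counts as the limit. Cell cycle genes were lower in 7 of 8 cases, with Mki67 5.69-fold lower (2.41 to 17.7) and 3.74-fold without the 1 cell with 88 UMIs. The share of cells with a UMI of Mki67 or Top2a was nonetheless 25.0% (5 of 20), beside 24.6% of all gated cells, or 10.5 and 12.98% after thinning. Of 2 measured B cell markers H2-Aa, which encodes an MHC class II chain, was 2.21-fold higher (13 UMIs in 8 cells, not called without its top cell), and its part in these results was not tested. Populations 1, 4 and 7 held 14 of these 20 cells, so the way through the gate and the population cannot be told apart here.

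**Figure D5:**
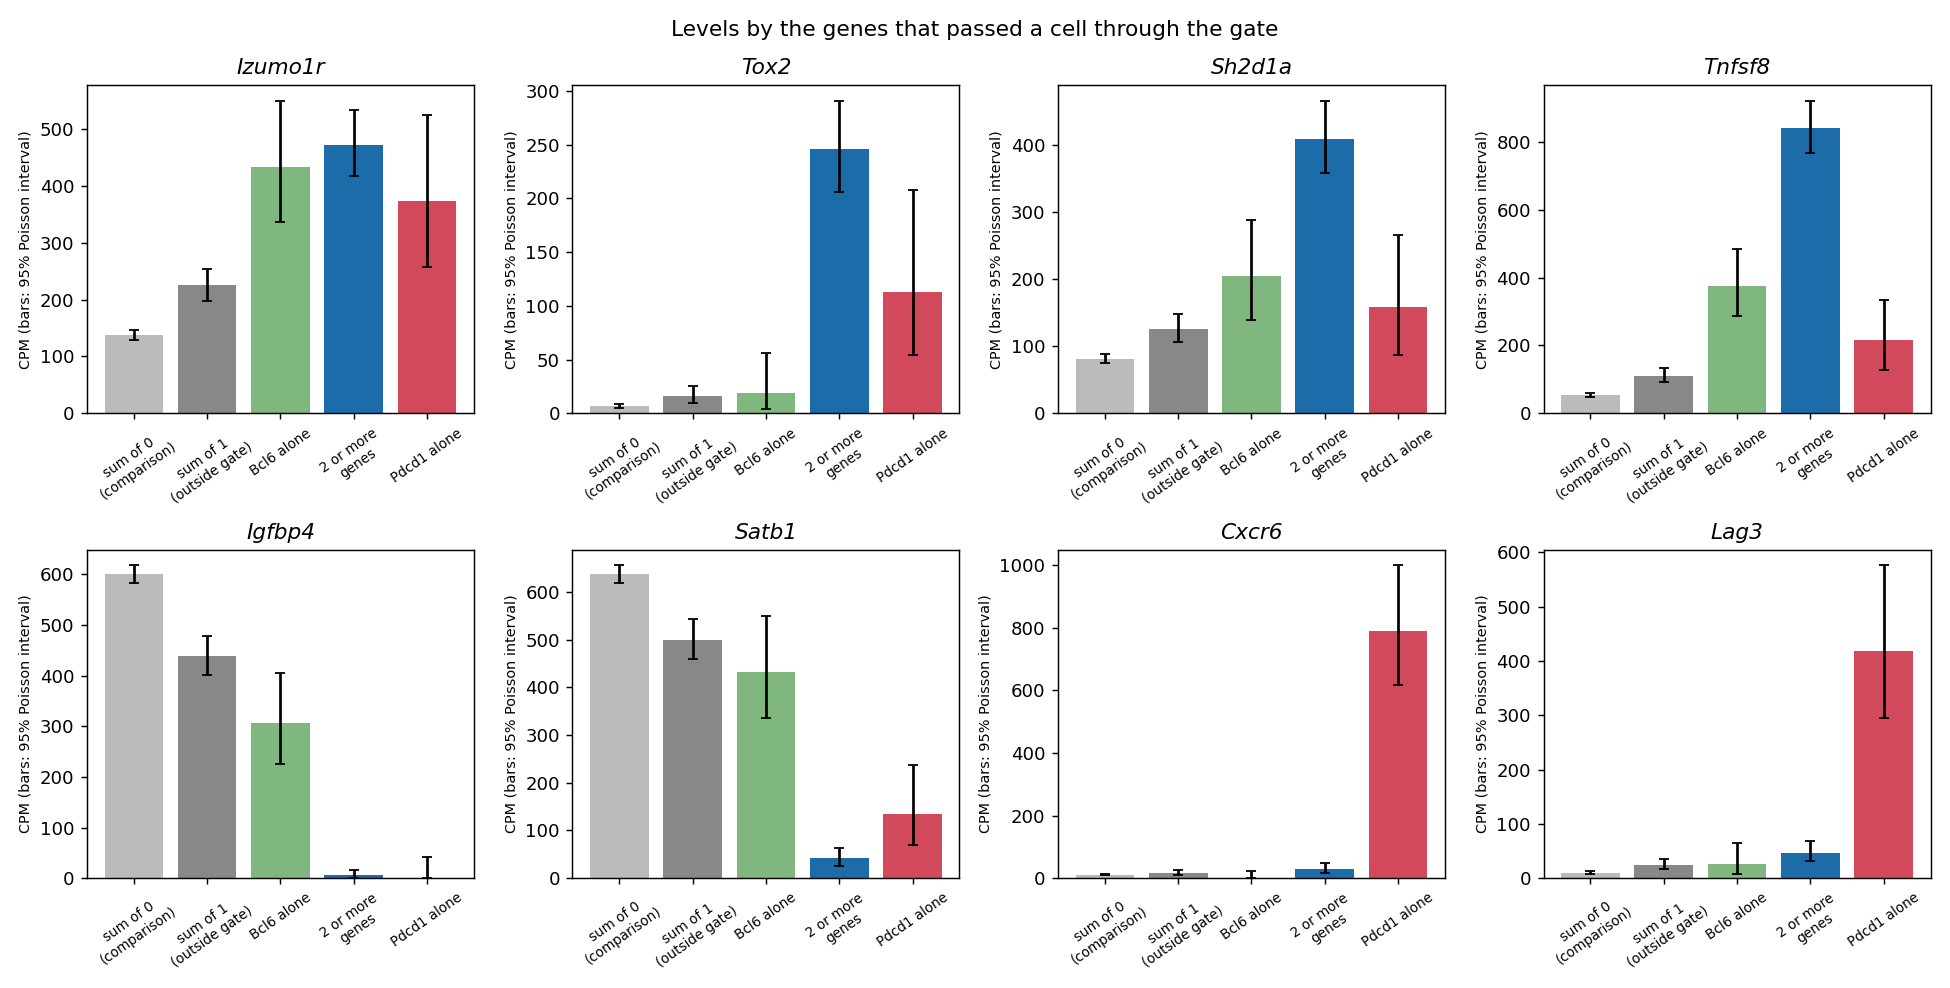
Level (y axis, CPM from 0, bars with 95% Poisson intervals) of 8 genes in cells with a gate sum of 0 and of 1, and in gated cells with Bcl6 alone, with UMIs of 2 or more of the 4 genes, and with Pdcd1 alone (x axis). Tox2, Sh2d1a and Tnfsf8 are highest with 2 or more genes, Igfbp4 and Satb1 are higher with Bcl6 alone than with the other 2 ways through the gate, and Cxcr6 and Lag3 are high with Pdcd1 alone.

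The 26 cells with Bcl6 alone, a split chosen after the values were seen, were set against the other 108 gated cells. There 45 of 3124 measured genes were higher (1.44%) and 267 lower (8.55%). With ribosomal and mitochondrial genes out of the denominator these were 76 and 217, so the share of higher genes went from 14.4 to 25.9%. Without each gene's cell with the most UMIs 23 were higher and 226 lower. Of 8 measured genes of naive T cells 6 were higher and none lower. Igfbp4 had 306 against 4.29 CPM, 48 UMIs in 9 cells against 3 UMIs in 2 cells, a ratio of 71.4 (23.0 to 358). Of the 48 UMIs 21 were in 1 cell, without which the ratio was 41.9 (12.9 to 216). Satb1 was 6.89-fold higher (4.65 to 10.3), Bach2, a repressor of effector genes, 4.40-fold, Klf2 4.09-fold, S1pr1 4.32-fold, Ccr7 3.47-fold and Lef1 3.42-fold. Of 16 follicular programme genes none was higher and 6 were lower. Tox2 had 3 UMIs and was 11.4-fold lower (3.84 to 56.1), Maf was 5.57-fold lower, Tox 3.63-fold, Batf 2.78-fold and Icos 2.35-fold. Izumo1r stood at 433 against 467 CPM, a ratio of 0.927 (0.703 to 1.21).

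The gated cells were also compared with the 46 cells that passed the same gate but had Foxp3. These 46 numbered 12, 3, 7, 5, 4, 9, 1, 2 and 3 in populations 1 to 9, a different spread from that of the gated cells. No population had 20 of them, so no ratio was read within a population. Differences by Foxp3 and by population cannot be told apart here. Of 4384 measured genes 273 were higher (6.23%) and 169 lower (3.85%) in the gated cells without Foxp3, and without each gene's cell with the most UMIs these were 213 and 109. Within the follicular programme 6 of 18 were higher and none lower. Tnfsf8 was 14.9-fold higher (9.44 to 24.9), Tox2 5.07-fold (2.98 to 9.28), Cd200 4.70-fold and Tcf7 3.54-fold, and Irf4 and Pou2af1 were near the limit at 2.18-fold and 2.19-fold and not called without their top cell. Cd40lg was 6.37-fold higher (3.89 to 11.1), at 259 against 40.7 CPM. Il2 and Sostdc1 had no UMI in the Foxp3 cells and were at least 17.6-fold and at least 31.5-fold higher, taking 3 counts as the limit. The 5 highest against the Foxp3 cells were Gm2663 (56 UMIs in 3 gated cells), Il2, Sostdc1, Pde3b (23.4-fold, 6.30 to 196) and Fam43a (19.7-fold, 5.29 to 166). Of these only Il2 is a cytokine of helper cells, and 46 of its 108 UMIs were in 1 cell.

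The 5 lowest against the Foxp3 cells were Mt1, a metallothionein (23.4-fold lower, 10.9 to 60.2, with 37 of the 80 UMIs in 1 Foxp3 cell), Lamc1, Neb, Gimap7 and Gzmb. Of 9 cell cycle genes 5 were lower and none higher, among them Mcm5 and Tubb5, which were not called without the 1 Foxp3 cell with the most UMIs. Both measured genes of regulatory T cells were lower, Ikzf2 3.18-fold and Tnfrsf1b 2.27-fold. Of 7 costimulatory receptors Tnfrsf9 (3.94-fold), Tnfrsf18 (3.00-fold) and Tnfrsf4 (2.19-fold, not called without 1 Foxp3 cell) were lower and Cd226 was 3.34-fold higher. Of 8 inhibitory receptors Entpd1 and Lag3 (3.83-fold) were lower, and Btla (3.18-fold) and Cd160 were higher. Of 11 genes opposed to the follicular state Il2ra, the high-affinity interleukin 2 receptor chain (6.95-fold, 4.76 to 10.4), and Selplg were lower and Ccr7 was 2.26-fold higher. Of 7 signals to B cells Il10, an inhibitory cytokine (6.49-fold, 3.32 to 13.7), was lower and Cd40lg and Ifng were higher. Izumo1r, at 461 against 381 CPM, had a ratio of 1.21 (1.00 to 1.47). Icos, Ctla4, Tigit and Maf were not called either, with ratios of 0.736, 0.610, 0.511 and 1.10. These 5 genes therefore did not separate the classes by the size used.

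RNA of other cell types was measured in the same cells. The 8 B cell markers in the table summed to 542 CPM in gated and 574 CPM in comparison cells, against 42275 CPM in B cells, and ranged from 377 to 1856 CPM over the gated cells of the 9 populations. The 9 macrophage markers summed to 209 and 303 CPM, against 31275 CPM in macrophages. Both CD8 genes summed to 21.02 and 27.5 CPM, against 1985 CPM in CD8 T cells. The gate itself limits both CD8 genes, Cd79a and the C1q genes. The B cells, macrophages and CD8 T cells were taken by high counts of the same genes. The low CD8 sums, and the Cd79a and C1q parts of the other sums, thus follow from the gate and are a description. Natural killer markers reached 599 CPM in the 7 gated cells of population 4 and 37.4 CPM when pooled, with Ncr1 at 0. Their part in the T helper 1 levels of that population was not tested. Of 5 germinal centre B markers Gcsam and Rgs13 were at 0 in the gated cells, and Fas, which activated T cells also express, was 2.27-fold higher than in comparison cells. Dendritic markers Flt3, Xcr1, Cd209a, Siglech and Ccl22, neutrophil markers S100a8, S100a9 and Csf3r, and both haemoglobin genes were at 0.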

How the data were processed

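Whole-number UMI counts, not normalized, were deposited by the authors. Per the submitters' processing notes Cell Ranger 8.0.1 made them, and per the design text the reference was mm10-1.2.0. The sources used here do not give the treatment of intron reads or of strand. It has 27998 genes and 21624 barcodes of 1 pool (4 gene expression libraries and 1 hashtag library). Cells with at least 200 genes and at most 20% mitochondrial counts were kept (93 barcodes removed), with a median of 3973 UMIs. A hashtag was given where its count was at least 3 times the next, and 258 cells, none of them gated, had none.

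Counts were summed per class and divided by total UMIs. Ratios have exact conditional binomial intervals, levels exact Poisson intervals and shares exact Clopper-Pearson intervals, all at 95%. A count of 0 was taken to allow 3 counts. No doublets were removed; Scrublet (scanpy 1.11.5, expected 8%) was an alternative and called 184 cells (0.855%), none of them gated. The calling code was checked on simulated data. Gene positions and gene types are from GENCODE vM21 (GRCm38). Python 3.11.15, numpy 2.4.6, scipy 1.17.1, pandas 2.3.3 and matplotlib 3.10.9 were used.

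The members and lists were chosen with earlier results of these data known. Any listed gene could be named, and beyond the lists the 10 highest and 10 lowest ratios of the main comparison and the 5 of each other, among called genes with the same direction in every population with at least 20 cells of both classes. Only the main comparison had such populations. In the other comparisons this condition removed no gene, and their leading genes were not read within populations. Another planned comparison class and a count of germinal centre B cells rested on genes that are not reported here. Alternatives changed the gate, the minimum of 50 UMIs, the weighting of cells, depth, the limits on Cd79a and C1q, the denominator, the populations used and the cell with the most UMIs of a gene (its top cell).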

Additional observations from a re-analysis of the deposited data

How the results depend on the processing

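The gate took 368 cells at a sum of at least 1, 74 at a sum of at least 3, 30 after thinning every cell to 1500 UMIs and 74 without any UMI of Cd79a or C1q. It took 92 without Pdcd1 in the sum and 133 or 134 under the hashtag and doublet settings. Populations 2, 5 and 8 held between 48.2 and 80.4% of the cells under these gates. Against comparison cells, 1616 genes were higher with no minimum of UMIs. After thinning 536 were higher and 158 lower, 335 and 83 of them among those reported, and 452 were lower with the other denominator. Without each population in turn, between 772 and 912 genes were higher and between 260 and 302 lower. Against the comparison cells with Cd44, 335 were higher and 146 lower at a minimum of 20 UMIs, 390 and 211 with no minimum, and 39 and 8 after thinning; without each population the counts ran from 144 to 265 and from 21 to 83. For cells with Pdcd1 alone, 307 genes were higher at a minimum of 20 UMIs, 480 with no minimum and 38 after thinning, when 32 were lower; 84 were lower without Cd79a or C1q UMIs, and without each population 142 to 191 were higher and 124 to 180 lower. Against the Foxp3 cells, 473 and 339 were called at a minimum of 20 UMIs, 530 and 498 with no minimum, 47 and 33 after thinning, and 137 and 109 without Cd79a or C1q UMIs; without each population 184 to 322 were higher and 128 to 188 lower. For cells with Bcl6 alone, 116 and 417 were called at 20 UMIs, 221 and 427 with no minimum, 16 and 68 after thinning, and 76 were higher with the other denominator; without each population 38 to 52 were higher and 205 to 324 lower. Thinning and the strict limits on Cd79a and C1q leave fewer UMIs or cells, and so fewer genes measured.

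Without each gene's cell with the most UMIs, 18 genes were lower than in comparison cells with Cd44, 80 higher with Pdcd1 alone, 109 lower than in Foxp3 cells and 23 higher with Bcl6 alone.

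Of 35 genes read under 20 alternatives each, 678 values kept their direction and call, 18 lost the call, 3 gained it and 1 reversed: Cxcr6, whose ratio was 0.779 in populations 2, 5 and 8 only. Settings for those populations, for cells with 2 or more gate genes, for UMIs in at least 5 cells, for the top cells, for the comparison cells with Cd44 and for the split by Bcl6 alone were chosen after seeing the data. The 20 cells with Pdcd1 alone, the 26 with Bcl6 alone and the 55 comparison cells with Cd44 held 88493, 156873 and 377716 UMIs in all, against 856452 in the 134 gated cells, which limits the genes that can be measured in them. No test was run, so none used the pairing of both classes within a population. Pooled ratios sum over populations with different mixes of the classes. Population 5 had 34 gated and 156 comparison cells, and population 9 had 9 and 352. For some genes the values of both classes within a population are given side by side.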

Other observations

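Gm2663 had the largest ratio of all measured genes, with 56 UMIs in gated cells and 1 in comparison cells, but only 3 gated cells held them and 37 were in 1 cell. It is given here because of that value, after it was seen. After thinning to 1500 UMIs before the gate, the share of gated cells among CD4 T cells without Foxp3 was 20.0, 25.0 and 18.2% in populations 1, 4 and 7 (4 of 20, 4 of 16 and 2 of 11 cells). It was 4.08, 9.80 and 2.13% in populations 2, 5 and 8 (6 of 147, 10 of 102 and 2 of 94 cells). In populations 3, 6 and 9 it was 0.498% (1 of 201 cells), 0 of 174 cells (interval up to 2.10%) and 0.575% (1 of 174). The 3 highest shares were thus again those of populations 1, 4 and 7, each from fewer than 5 gated cells.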
